A study of Brassica rapa with 12 samples.

Results

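Seedlings of 2 *Brassica rapa* lines kept in the dark were compared, LP08 against Chiifu, over all features whose ID starts with Bra. Of the 12 RNA sequencing libraries in the series, 6 were dark libraries, 3 from LP08 and 3 from Chiifu, and they were taken by their labels alone. Each library came from whole plants that were 1 week old and was deposited as read counts for 42186 features, of which 41018 have a Bra ID and 1168 an ENSRNA ID. The dark groups, LP08 Dark and Chiifu Dark, were kept at 24 h of darkness a day. The light groups had 16 h of light and 8 h of darkness and serve to set a dark difference beside its counterpart. Their libraries also entered the joint fit, and with it the filter, the scaling and the spread behind the dark p-values. The labels do not say whether the darkness lasted from germination, nor whether the 3 libraries of a group came from separate plants, so the p-values reflect library-to-library spread, part of which could be technical. The series title sets vegetable-type against oilseed-type plants of the species and names glucosinolates as its subject, but the labels do not say which of these types each line is, and no treatment or transgene other than the lighting is given for any group.

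A seedling kept without light follows the programme called skotomorphogenesis: the hypocotyl elongates, the cotyledons stay closed and pale, and plastids develop into etioplasts rather than chloroplasts. Phytochromes and cryptochromes, the red and blue light receptors, end this programme in light, and PHYTOCHROME INTERACTING FACTORS are the transcription factors known from Arabidopsis to maintain it in the dark. Without photosynthesis such a seedling lives on seed reserves, and glucosinolates, sulfur-containing defence compounds of cabbages and their relatives, are part of what its tissues make and turn over. The Bra IDs could not be tied to these roles: the files do not pair them with names, and RefSeq's table of genes for the assembly CAAS_Brap_v3.01 holds 1 of them, Bra000116, with the synonym SWEET9, a member of a family of sugar transporters. Bra000116 had no read in the 6 dark libraries, which allows up to 0.00888 CPM (counts scaled to library size). Genes are therefore described by ID, level and pattern, without a role, and neither the pathway lists nor the markers of root, leaf, seed or vascular tissue could be counted. The labelled tissue was for that reason not checked against its markers, and a shift in the make-up of the seedlings between the lines was not tested. In whole seedlings, fewer cells of a type and less RNA per cell cannot be told apart.

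The dark libraries held 48773088 to 60338040 counts. A first principal component with 84.6% of the variance of log2 CPM separated the lines, at -166.5 to -153.3 in Chiifu and 151.8 to 167.7 in LP08. The second, with 7.36%, separated Chiifu Dark replicate 3, at -92.7, from its sister libraries at 33.5 and 59.6. This library had the highest share of counts in ENSRNA features, 2.90%, against 0.706% to 1.79% in the others, and the lowest mean correlation with its own group, 0.965. No line difference in this share was detected by an exact two-sided permutation test (1.64 ± 1.13% in Chiifu and 1.36 ± 0.43% in LP08, SD, n = 3, p = 0.9, adjusted over 6 measures 0.9). Such a test of 3 against 3 libraries cannot give a p under 0.1. The 10 most abundant features took 4.10 ± 0.44% of counts in Chiifu and 5.79 ± 0.59% in LP08 (SD, n = 3, exact permutation p = 0.1, adjusted 0.3), with no overlap between the lines.

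The lines divided their message differently among genes. Between a Chiifu Dark and an LP08 Dark library, 21.2% to 26.8% of Bra counts would have to move from some genes to others to turn one profile into the other, with a median of 23.4% over 9 pairs. Libraries of the same line differed by 7.68% to 17.4% in Chiifu Dark and by 6.51% to 9.13% in LP08 Dark, so every pair across lines was farther apart than every pair within one. The widest pairs within Chiifu Dark were those with replicate 3. In light, the same measure ran from 14.98% to 22.5% across lines. The dark and light ranges overlap, pairs share libraries, and the difference between them was not tested.

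**Figure D1:**
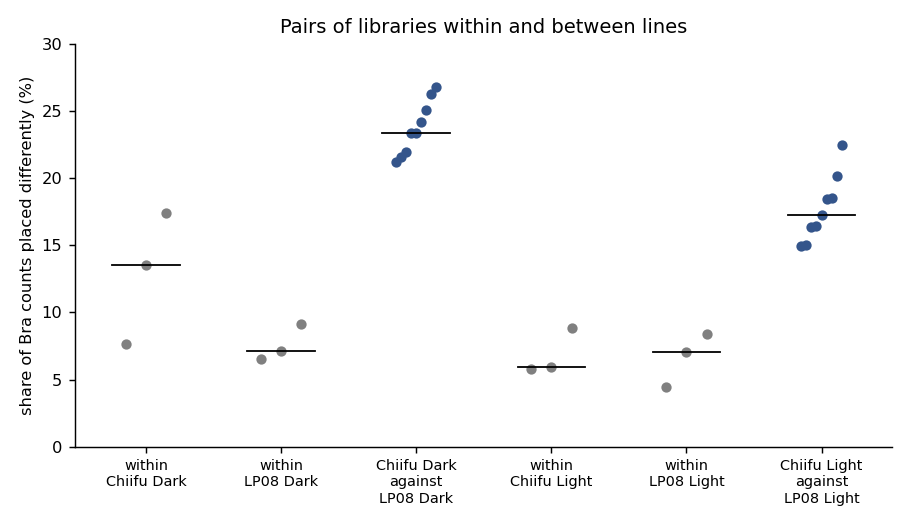
Share of Bra counts (percent, vertical axis) placed differently in 2 libraries, for pairs within each group and pairs of a Chiifu and an LP08 library under the same lighting. Each point is a pair of libraries and the line is the median. The 9 dark pairs across lines lie between 21.2% and 26.8%, above all 3 pairs within Chiifu Dark (7.68% to 17.4%) and within LP08 Dark (6.51% to 9.13%).

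Between the mean profiles of the lines, 21.9% of Bra counts were placed differently in the dark. On the LP08 side, 366 genes held 50% of the gain. On the Chiifu side, 646 genes held 50%. The 10 largest gains in LP08 made up 3.83 percentage points and the 10 largest losses 1.53, and a single transcript, Bra001843, accounted for 1.76 points of the gain. Of the 10 most abundant Bra features of each line, 5 were shared, and of the 100 most abundant, 69. Of the 131 features in either list of 100, 38 were called higher in LP08 and 30 lower in the test described next, and 23 and 15 by at least 2-fold. Together these are 51.9% and 29% of the 131, against 53.4% and 31.7% of all tested genes. Among the 1766 tested genes with a dark mean of 100 CPM or more, 51.8% were called and 18.3% by at least 2-fold. A feature could enter the lists by being high in either line, which favours differing genes. The larger share at 2-fold among the 131 is therefore a description.

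Across all features, differences between the lines were found by edgeR's quasi-likelihood test on the counts, with Benjamini-Hochberg adjustment and a gene called at an adjusted p under 0.05. Of the 31088 Bra features that passed the filter on low counts, 53.4% were called in the dark. LP08 was higher for 7927 genes (25.5% of those tested) and lower for 8674 (27.9%). The filter also kept 87 Bra features with no read in the dark, which passed it on their light libraries. The median log2 fold change over all tested genes was 0.00027, a value that the scaling of the libraries (TMM) draws towards 0. With library totals it was -0.08. The middle of the distribution under TMM ran from -0.70 at the 25th to 0.63 at the 75th percentile. The lower tail was the longer one, with the 5th percentile at -3.51 and the 95th at 2.82. Whether reads of both lines mapped and were counted equally well was not tested, either for this asymmetry or for the calls. The values of the LP08 and Chiifu libraries did not overlap for 57.8% of tested genes, 29.1% with LP08 above and 28.7% with LP08 below. Among called genes, 94.5% had no overlap.

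**Figure D2:**
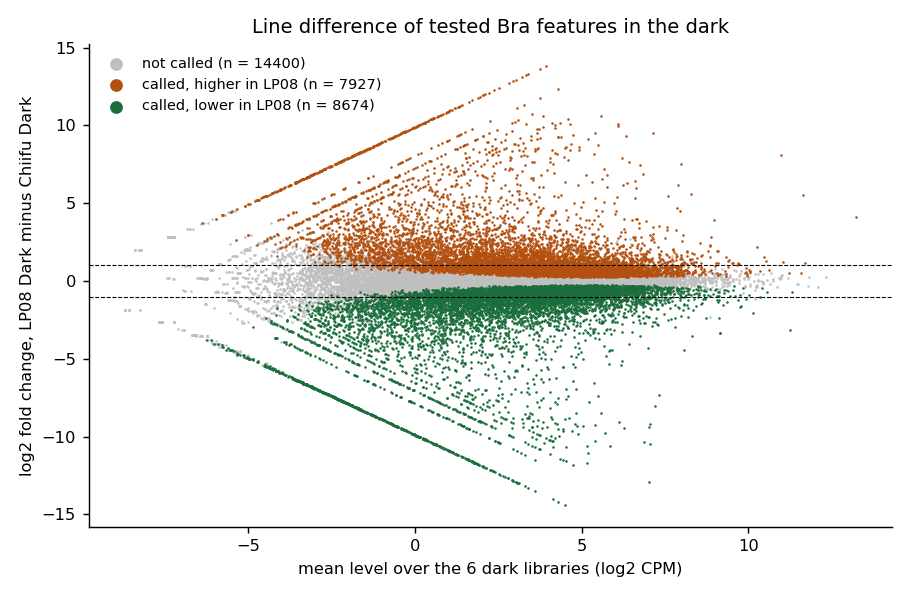
Log2 fold change (LP08 Dark minus Chiifu Dark, vertical axis) against the mean level over the 6 dark libraries (log2 CPM, horizontal axis) for the 31001 tested Bra features with reads in the dark. Orange points are the 7927 genes called higher in LP08, green points the 8674 called lower, grey points were not called, and the dashed lines mark 2-fold. The straight diagonal edges are genes with no or very few reads in 1 line, whose fitted fold depends on the prior count.

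Many of the differences were large. By at least 2-fold, 4530 genes were called higher in LP08 (14.6%) and 5318 lower (17.1%), and by at least 8-fold 1388 and 1745. At 32-fold or more there were 749 genes higher and 1059 lower in LP08. The fitted fold of genes with no or very few reads in 1 line depends on the prior count. Among called genes without overlap, 311 higher and 558 lower in LP08 had no dark read in the other line. A stricter test, of whether the difference itself exceeds 2-fold (edgeR's glmTreat, adjusted p under 0.05), called 19.5% of tested genes, 2649 higher (8.52%) and 3423 lower (11%). At the other end, the 95% interval of the log2 fold change lay wholly inside 2-fold for 12359 genes, or 39.8%. A further 5472 genes were neither called nor bounded in this way, so for them the data do not say whether the lines differ by 2-fold. The same holds for genes called as different that neither passed the stricter test nor had an interval inside 2-fold. These are not among the 5472.

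How much could be said depended on the level of a gene. Among the 6544 genes with a dark mean under 1 CPM, the median standard error of the log2 fold change was 0.63, 45.3% were called at 2-fold or more and 4.40% were bounded inside 2-fold. In the class of 1 to 10 CPM (10675 genes) these shares were 38.6% and 33.7%. In the class of 10 to 100 CPM (12103 genes) they were 20.2% and 61.3%, with a median standard error of 0.16. The 1766 genes at 100 CPM or more were close to that class, at 18.3% and 59.5%. The low class can be enriched in differing genes, because a gene can pass the filter through 1 group alone. The balance of directions also varied with level, which was not tested: LP08 was lower for more genes in the classes under 1 CPM (1680 against 1395 higher) and of 1 to 10 CPM (3425 against 2696), whereas at 100 CPM or more 545 genes were higher and 369 lower with TMM scaling, an excess that was gone with library totals (442 and 440).

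The called genes carried a sizeable part of the message. Genes at least 2-fold higher in LP08 took 4.93%, 5.56% and 4.27% of counts in the 3 Chiifu Dark libraries and 16.6%, 17.7% and 17.7% in the 3 LP08 Dark libraries. Genes at least 2-fold lower took 14.1%, 13.2% and 13.6% in Chiifu Dark and 4.19%, 3.50% and 3.66% in LP08 Dark. These genes were picked on the dark libraries, so the gap between the dark groups is a description. In the light libraries, which did not enter the choice through their line difference, the first set held 10.9 ± 0.14% of counts in Chiifu and 14.1 ± 0.30% in LP08, and the second 15.9 ± 0.63% and 11.8 ± 0.49% (SD, n = 3). The lines thus did not overlap in light for either set. The gap was narrower there, at 3.26 percentage points against 12.4 for the first set and -4.11 against -9.86 for the second. Genes picked for a large dark difference tend to differ less in other libraries, so this narrowing is a description too.

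**Figure D3:**
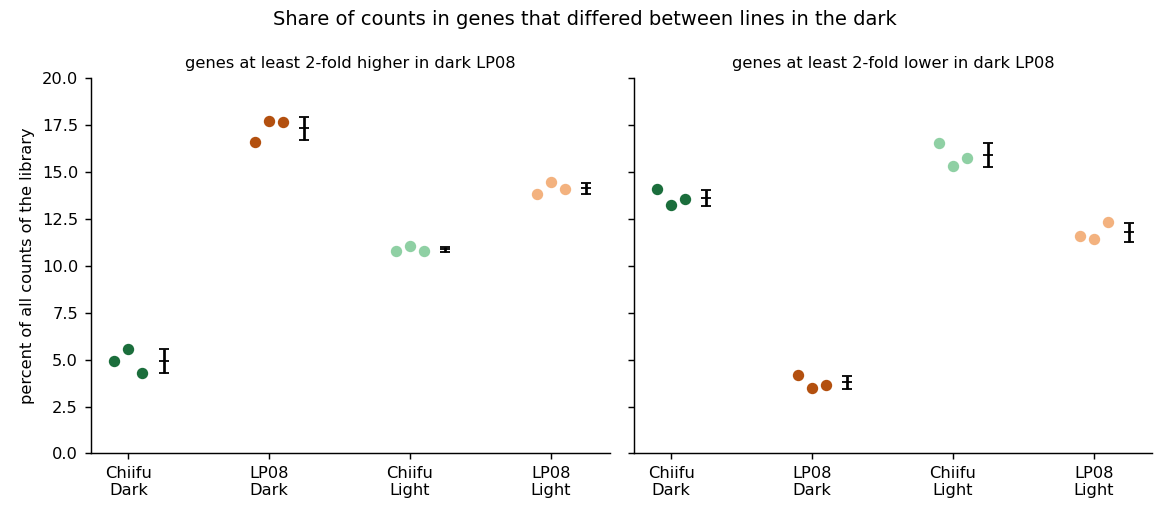
Percent of all counts of a library (vertical axis) in the 4530 genes called at least 2-fold higher (left) and the 5318 called at least 2-fold lower (right) in LP08 in the dark. Each point is a library and the black bar is the mean ± SD of 3. The dark groups differ by selection. In the light groups the same genes hold 10.9% against 14.1% (left) and 15.9% against 11.8% (right) in Chiifu and LP08.

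Single genes were chosen by rules on level, fold and overlap in the dark, and their dark values below are the values that chose them. For some, the values in light entered the rule as well. The largest gain in abundance was that of Bra001843. It stood at 1215, 1160 and 716 CPM in the Chiifu Dark libraries and at 16217, 15950 and 22145 CPM in the LP08 Dark libraries, a log2 fold change of 4.14 (SE 0.30, edgeR adjusted p = 3.73e-07). The lowest LP08 library was thus far above the highest Chiifu library. In light the order of the lines turned, with Chiifu at 35.4 ± 10.4 CPM and LP08 at 1.49 ± 0.14 CPM (SD, n = 3, log2 fold change -4.57, adjusted p = 2.97e-07).

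Bra010807 had the second largest gain. Its level was 210, 131 and 70.1 CPM in Chiifu Dark and 7471, 5507 and 5777 CPM in LP08 Dark (log2 fold change 5.51, SE 0.37, adjusted p = 2.27e-07). In light LP08 was again the higher line without overlap, but by less, at 2799 ± 295 against 1245 ± 100.2 CPM (SD, n = 3, log2 fold change 1.17, adjusted p = 0.00849). Chiifu Dark was thus the group that stood apart at the low end.

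The largest loss was that of Bra027042, at 4637, 2936 and 5534 CPM in Chiifu Dark and 621, 413 and 415 CPM in LP08 Dark (log2 fold change -3.18, SE 0.25, adjusted p = 8.12e-07). In light Chiifu was at 889 ± 44.1 CPM and LP08 at 360 ± 25.6 CPM (SD, n = 3). Bra033480 followed, with 1716, 2067 and 1611 CPM in Chiifu Dark and 405, 520 and 394 CPM in LP08 Dark (log2 fold change -2.03, SE 0.29, adjusted p = 9.6e-05). For both genes Chiifu was the higher line in every library under either lighting.

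Among genes called without overlap, with at least 100 CPM on average in one line and 1 CPM in every dark library of the other, Bra030182 had the largest fold. It was at 11.8, 15.2 and 17.4 CPM in Chiifu Dark and at 4763, 3511 and 3909 CPM in LP08 Dark, 274.5-fold higher by the means (adjusted p = 1.31e-09, log2 fold change 8.10, SE 0.25). In light the same gene was abundant in both lines, with Chiifu at 1933 ± 154.8 CPM and LP08 at 2932 ± 388 CPM (SD, n = 3, log2 fold change 0.60, adjusted p = 0.0202). Dark Chiifu was therefore the single group with a low level of it.

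Bra014534 showed another pattern, with LP08 the higher line in every library whatever the lighting. Its dark levels were 1.65, 2.97 and 3.62 CPM in Chiifu Dark and 523.5, 412 and 561 CPM in LP08 Dark (log2 fold change 7.51, SE 0.37, adjusted p = 2.20e-08). In light Chiifu was at 0.81 ± 0.33 CPM and LP08 at 1071 ± 90.7 CPM (SD, n = 3).

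On the Chiifu side, Bra039047 had the largest fold of this class. It was at 199, 260 and 492 CPM in Chiifu Dark, with replicate 3 the highest, and at 2.11, 2.58 and 1.32 CPM in LP08 Dark (log2 fold change -7.30, SE 0.45, adjusted p = 1.56e-07). Bra025304 came next, at 156.5, 139.5 and 129 CPM in Chiifu Dark and 4.35, 3.13 and 2.73 CPM in LP08 Dark (log2 fold change -5.38, SE 0.23, adjusted p = 8.29e-09). Chiifu was also higher in light without overlap for both, at 11.8 against 0.40 CPM for Bra039047 and at 255.5 against 11.4 CPM for Bra025304 (means, n = 3).

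**Figure D4:**
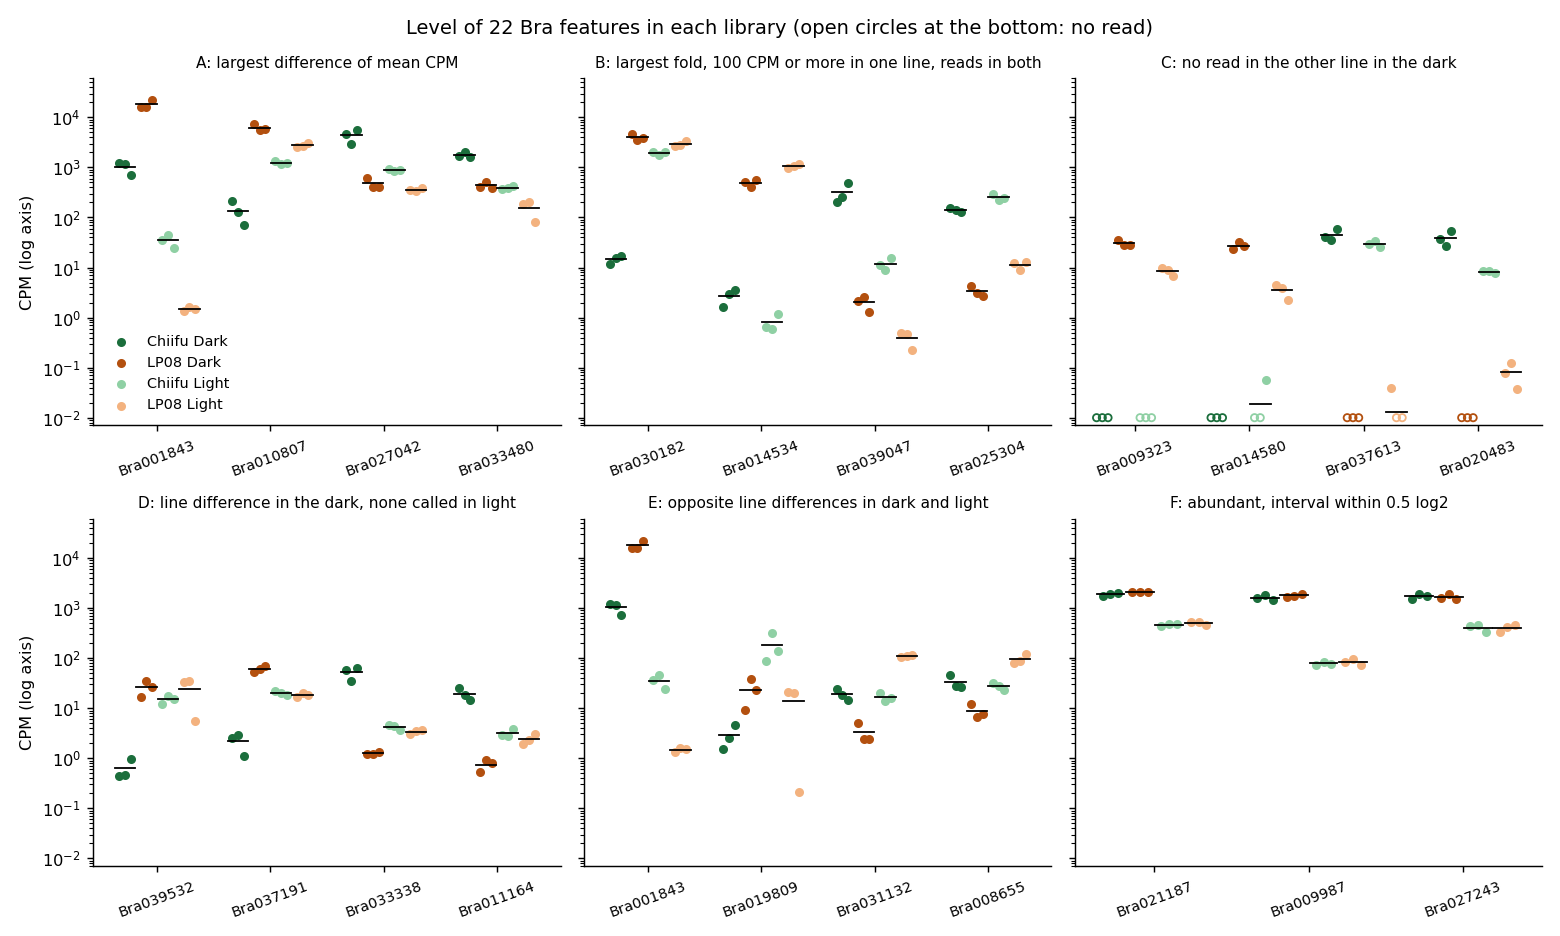
Level (CPM, log axis) of 22 Bra features in each of the 12 libraries, by the rule that chose them; Bra001843 met 2 rules and is drawn under A and E. Points are libraries, black lines are group means of 3 libraries, and open circles at the bottom are libraries with no read. In the dark the lines do not overlap for any gene of panels A to E, which the rules required. In light they overlap for the 4 genes of panel D and keep or turn their order without overlap in panels A, B, C and E. The rules also required no light call for panel D and opposite calls for panel E.

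A number of genes were read in 1 line only. In the dark, 93 Bra features had at least 1 CPM in each LP08 library and no read in Chiifu, 0.227% of the 41018, and 176 showed the reverse, 0.429%. Here CPM is of the unscaled library total. The level in the line with reads was modest, with medians of 2.64 CPM in LP08 and 3.33 CPM in Chiifu, and 17 and 47 genes had at least 5 CPM in each library. The light libraries were not used for this choice. In them, Chiifu again had no read for 60 of the 93 genes and LP08 for 125 of the 176. For scale, 32719 to 32839 of the 41018 Bra features had reads in each light Chiifu library. In each light LP08 library 31408 to 31868 had reads. Counted with at least 1 CPM in each light library of the other line, the pattern recurred in full for 35 of the 93 and 77 of the 176. None of the 93 reached 1 CPM in every light Chiifu library, and 1 of the 176 did so in light LP08. The line that had reads in the dark was called higher in light as well for 88 of the 93 and 171 of the 176. Of all tested genes, LP08 was called higher in light for 21.4% and lower for 25.1%. Whether a line lacks such a gene, or its reads failed to map or to be counted, was not tested.

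The most abundant of the genes without a read in dark Chiifu was Bra009323, at 35.1, 27.97 and 28.6 CPM in LP08 Dark, at least 1848-fold above the limit of 3 counts over the 3 Chiifu libraries. Bra014580 was at 22.9, 31.9 and 26.5 CPM, at least 1640-fold higher. In light, Bra009323 again had no read in Chiifu, and Bra014580 had 4 reads. Without a read in dark LP08, Bra037613 stood at 41.1, 35.4 and 59.5 CPM in Chiifu Dark (at least 2366-fold lower in LP08) and Bra020483 at 36.8, 26.5 and 54.7 CPM (at least 2053-fold lower). They had 2 and 13 reads in light LP08. These bounds cover counting error in the line without reads only, and the reads carry no molecular identifiers.

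The share of dark differences that were also present in light varied with their size and direction, without a test of this variation. Of genes called 32-fold or more higher in dark LP08, 92.4% had the same sign in light and 83.3% were called the same way there. For those 32-fold or more lower, the shares were 97.1% and 90.6%. Both classes include genes with no dark read in 1 line, whose fitted fold depends on the prior count. For comparison, 21.4% of all tested genes were called higher and 25.1% lower in light. Under 2-fold, 39.2% of 3397 genes higher and 32.8% of 3356 genes lower were called the same way, and 74.8% and 62.7% had the same sign. Between 2-fold and 4-fold the shares called the same way were 40.3% of 2250 genes higher and 52.4% of 2625 genes lower. Between 4-fold and 8-fold they were 42.6% of 892 and 66.9% of 948, so the share for genes higher in LP08 changed little up to 8-fold, and the lower genes had the smaller share under 2-fold and the larger one above it. The median log2 fold change of the genes between 4-fold and 8-fold moved from 2.41 in the dark to 0.73 in light for the higher ones and from -2.40 to -1.39 for the lower ones. No library enters both comparisons, although a gene has a single dispersion in the joint fit, and genes picked for a large dark value tend to be less extreme in other libraries.

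**Figure D5:**
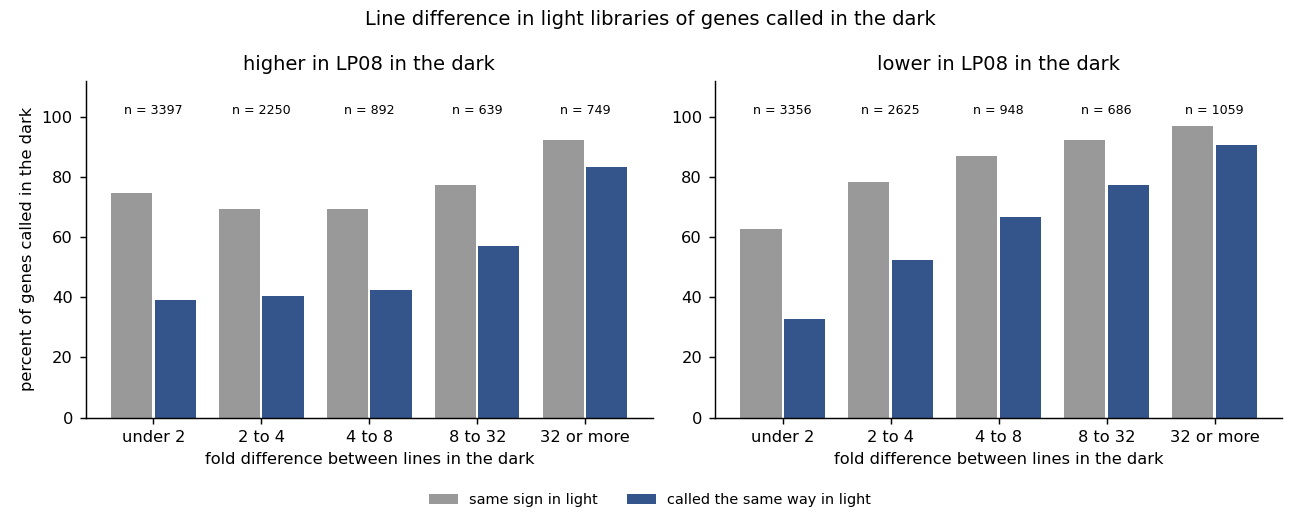
Percent (vertical axis) of genes called in the dark that had a line difference of the same sign in light (grey) or were called the same way in light (blue), by fold difference between the lines in the dark (horizontal axis), for genes higher (left) and lower (right) in LP08. The number of genes is above each pair of bars. From 4-fold to 8-fold, 42.6% of the higher and 66.9% of the lower genes were called the same way in light.

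The difference between the dark and the light line effect was tested directly in the same fit and was called for 29.3% of tested genes. Among the 16601 genes called in the dark it was called for 6545, or 39.4%. Of these, 4670 had a larger line difference in the dark and no opposite call in light (2146 higher and 2524 lower in LP08). A smaller dark difference was found for 682, and 1193 were called in opposite directions. Taking genes called in the dark favours a larger dark difference, and the matching count among genes called in light is not given here. The 4670 against 682 therefore does not show that line differences are more often larger in the dark. For 3577 of the 4670, no line difference was called in light. For 73 of the 4670 and 37 of the 1193, a light group stood under 1% of the gene's highest group.

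Within the 4670, 1654 genes differed by at least 2-fold in the dark, had no call and less than 2-fold in light, and had at least 1 CPM on average in both light groups. For the 856 of them that were lower in LP08, LP08 Dark lay farther than Chiifu Dark from the common light level in 673, or 78.6%. For the 798 that were higher, LP08 Dark lay farther in 358 and Chiifu Dark in 440. The line with the lower dark level was thus the farther one more often in both directions. Distances were taken as differences of log2(mean CPM + 0.1), and no test was made because the groups being compared had chosen the genes.

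The following genes were called without overlap in the dark, at 10 CPM or more in the higher line, and had no call, less than 2-fold and at least 1 CPM in every library in light. Within these limits Bra039532 had the largest dark fold upward. It was at 0.44, 0.46 and 0.98 CPM in Chiifu Dark and at 16.8, 35.0 and 26.4 CPM in LP08 Dark (log2 fold change 5.41, SE 0.68, adjusted p = 6.52e-05). In light it was at 14.96 ± 2.72 CPM in Chiifu and, in LP08, at 24.6 ± 16.4 CPM (SD, n = 3, log2 fold change 0.72, adjusted p = 0.304). The wide spread in light LP08 came from replicate 3, at 5.67 CPM against 33.3 and 34.7 CPM.

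Bra037191 was at 2.55, 2.94 and 1.12 CPM in Chiifu Dark and at 51.9, 60.0 and 70.1 CPM in LP08 Dark (log2 fold change 4.77, SE 0.29, adjusted p = 1.16e-07). In light Chiifu was at 20.2 ± 2.01 CPM and LP08 at 18.4 ± 1.64 CPM (SD, n = 3, log2 fold change -0.14, SE 0.25). The light level of this gene lay between those of dark Chiifu and dark LP08.

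Downward within the same limits, Bra033338 was at 57.0, 34.4 and 64.1 CPM in Chiifu Dark and at 1.23, 1.25 and 1.32 CPM in LP08 Dark (log2 fold change -5.35, SE 0.24, adjusted p = 1.14e-08). Bra011164 was at 25.04, 18.8 and 14.6 CPM in Chiifu Dark and at 0.53, 0.91 and 0.79 CPM in LP08 Dark (log2 fold change -4.71, SE 0.30, adjusted p = 1.33e-07). In light the lines overlapped for both, at 4.24 ± 0.50 against 3.41 ± 0.35 CPM for Bra033338 and 3.18 ± 0.50 against 2.42 ± 0.61 CPM for Bra011164 (Chiifu against LP08, SD, n = 3).

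Of the genes whose line difference turned with the lighting, Bra001843 is described above. Bra031132 was lower in LP08 in the dark, at 24.1, 18.2 and 14.6 CPM in Chiifu Dark and 5.11, 2.47 and 2.44 CPM in LP08 Dark (log2 fold change -2.51, SE 0.29, adjusted p = 1.75e-05). In light Chiifu was at 16.7 ± 3.34 CPM and LP08 at 110.7 ± 4.35 CPM (SD, n = 3, log2 fold change 2.73, adjusted p = 9.39e-06). Its level in Chiifu was thus close under both lightings, and LP08 was below it in the dark and above it in light.

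Bra008655 had the same order, at 46.0, 28.2 and 26.4 CPM in Chiifu Dark and 11.9, 6.80 and 7.55 CPM in LP08 Dark (log2 fold change -1.94, SE 0.27, adjusted p = 9.63e-05). In light LP08 was higher, at 95.4 ± 22.2 against 27.6 ± 4.43 CPM (SD, n = 3, log2 fold change 1.79, adjusted p = 0.000203). Bra019809 went the other way, at 1.55, 2.60 and 4.68 CPM in Chiifu Dark and 9.34, 38.04 and 23.5 CPM in LP08 Dark. In light it was at 86.7, 324 and 138 CPM in Chiifu and at 21.4, 20.5 and 0.21 CPM in LP08, where replicate 3 stood far below the others. Its dark call was marginal (log2 fold change 3.02, SE 1.11, adjusted p = 0.041) and was lost without any 1 of the dark libraries except LP08 Dark replicate 1, with adjusted p from 0.0697 to 0.119 (edgeR).

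Some abundant genes stood at the same level in both lines within narrow limits. For 3282 tested genes the 95% interval of the dark log2 fold change lay within -0.5 to 0.5. The most abundant of them was Bra021187, at 1788, 1941 and 1978 CPM in Chiifu Dark and 2123, 2069 and 2060 CPM in LP08 Dark (log2 fold change 0.13, 95% interval -0.15 to 0.41). Bra009987 was at 1614 ± 186 and 1793 ± 159.7 CPM (interval -0.17 to 0.47) and Bra027243 at 1709 ± 185.7 and 1681 ± 224 CPM (interval -0.41 to 0.36; Chiifu and LP08, SD, n = 3). Their light levels were lower in both lines, at 467 and 509.5, 78.5 and 85.0, and 406 and 403 CPM in Chiifu and LP08.

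Genes with consecutive ID numbers differed in the same direction a little more often than genes at large. Of genes at least 2-fold lower in LP08 whose next ID number was tested, 23.2% were followed by another such gene, against 16.9% of all tested followers. For genes at least 2-fold higher the shares were 19% and 14.3%. Across genes, the dark log2 fold changes of consecutive numbers had a Spearman correlation of 0.07 over 24437 pairs that share libraries, and at a distance of 5 numbers it was 0.02. These shares were not tested, and the files do not say that ID numbers follow the order of genes in the genome.

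The longest runs at 2-fold or more held 6 genes lower and 5 genes higher in LP08, and the following were singled out after their values were seen. From Bra027594 to Bra027599, Chiifu Dark means were 3.10, 1.98, 13.0, 8.75, 24.2 and 23.0 CPM, while LP08 Dark had no read for the first pair, 4, 45, 2 and 2 reads in all for the others, and each of the 6 was also called lower in light. In the run from Bra029304 to Bra029308, Bra029306 was at 12.7 ± 20.2 CPM in Chiifu Dark and 611 ± 104 CPM in LP08 Dark (SD, n = 3, edgeR adjusted p = 0.0112). Its SD in Chiifu exceeds its mean there. Of the 5 genes of this run, 3 were also called higher in light. Bra029305 and Bra029308 were not, with light log2 fold changes of 0.145 and -0.475 (edgeR adjusted p = 0.836 and 0.146). Bra029304 and Bra029305 were low in the dark, at 0.361 and 0.281 CPM on average in LP08 Dark.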

How the data were processed

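RNA from whole *Brassica rapa* seedlings was extracted with an RNeasy kit and made into TruSeq Stranded mRNA libraries, per the labels' protocols. The deposited values are raw counts per feature, whole numbers with a different total in each library, which the authors left unscaled. FastQC, TopHat2, featureCounts and edgeR are listed, with no version, in the submitters' processing notes. Genome build, annotation and strand setting were not given in the sources used here, so reads of antisense, overlapping or near-identical genes could not be told apart.

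All 12 libraries were fitted together in R 4.3.3 with edgeR 4.0.16: filterByExpr by group (minimum count 10, total 15), which kept 31239 features, TMM scaling, 1 mean per group, robust quasi-likelihood F-tests, and adjustment over all kept features. Numbers are given for Bra features. CPM of named genes use TMM-scaled totals. Standard errors are those implied by the F statistic, and 95% intervals follow from them. A count of 0 allows up to 3 counts, or 0.0497 to 0.0615 CPM in a dark library. Intervals and limits cover counting error and, for fits, the spread between libraries.

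The single genes were the first 2 higher and first 2 lower in LP08, among called genes without overlap, by difference of mean CPM, by fold (at least 100 CPM in one line, 1 CPM in each library of the other), by level with no read in the other line, by dark fold where light was not called and under 2-fold (10 CPM in the dark, 1 CPM in each light library), and by the smaller fold of opposite differences (10 CPM), plus the 3 most abundant with an interval within 0.5 log2. The comparison, rules and lists were chosen with earlier results of these data known. Replicate numbers 1 to 3 recur in each group. Same-numbered dark libraries correlated at 0.12, 0.10 and -0.11 in their deviations, and the numbers were therefore not used as pairs. Alternatives were other scalings and filters, DESeq2 1.42.0, limma 3.58.1 (voom), the dark libraries alone, a replicate block, each dark library left out and, added after seeing the data, no ENSRNA features. The procedure was tested on simulated data.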

Additional observations from a re-analysis of the deposited data

Results flagged for a closer look

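The line difference itself differed between dark and light, by the test of the difference in the joint fit, for the following results. Among genes called in the dark, 4670 had a line difference that was larger in the dark, which this choice favours, and 1193 were called in opposite directions. Among the single genes, the dark minus light difference of the line effect (log2) was positive for Bra001843 (8.71), Bra030182 (7.50), Bra019809 (6.72), Bra014580 (6.25), Bra037191 (4.91), Bra039532 (4.69) and Bra010807 (4.34). It was negative for Bra020483 (-7.55), Bra031132 (-5.24), Bra033338 (-5.04), Bra011164 (-4.31), Bra008655 (-3.72), Bra014534 (-2.86), Bra039047 (-2.41), Bra027042 (-1.87) and Bra025304 (-0.89). Bra039532, Bra037191, Bra033338, Bra011164, Bra019809, Bra031132, Bra008655 and Bra001843 were chosen with this test as a condition. The values of Bra014580 and Bra020483 rest on 4 and 13 light reads in 1 line against none in the dark, and their size depends on the prior count. The value of Bra019809 includes light LP08 replicate 3, at 0.21 CPM against 21.4 and 20.5 CPM in its sister libraries.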

How the results depend on the processing

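No call of a single gene changed direction in 15 other settings, and the calls lost were those of Bra019809: 8 settings ended it, with adjusted p from 0.0647 (replicate block) to 0.125 (limma-voom). Genes called in the dark numbered 6268 higher and 7353 lower with the 6 dark libraries alone, and 6740 and 9503 with library totals, where 41.5% of called genes were higher against 47.8% with TMM and the median log2 fold change was -0.08. With the replicate block there were 7712 higher and 8413 lower, and with DESeq2 8248 and 9295. Tested against 2-fold, fewer genes were called by DESeq2 (2118 higher and 2889 lower) and limma-voom (2186 and 2752) than by edgeR (2649 and 3423). Over left-out dark libraries they ran from 6749 to 8287 higher and from 7504 to 9058 lower. Among genes called in the dark, those with a larger difference there ran from 3349 (without LP08 Dark replicate 2) to 5281, and opposite calls from 885 to 1534. With library totals, genes at least 2-fold higher held 15.8% of counts in LP08 and 4.16% in Chiifu, and those lower 4.67% and 15.5%. Over left-out libraries these shares were 16.4% to 18.0%, 4.50% to 4.99%, 3.37% to 4.47% and 12.5% to 15.4%, as other genes passed. Genes read in LP08 only and in Chiifu only were 17 and 47 at 5 CPM, 9 and 19 at 10 CPM, and 173 and 339 when up to 3 reads were allowed in the other line. Scaling of totals, filters and tests do not enter these on-or-off counts except for the CPM minimum. The difference between dark and light has no value with the dark libraries alone. Depth limits what is said of genes under 1 CPM, of which 4.40% were bounded inside 2-fold.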
